A study of Mus musculus with 6 samples.

Results

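The genes described here are 10 genes of the presynaptic release site, chosen by name: Ctbp2, Bsn, Pclo, Rims2, Cacna1d, Slc17a6, Slc17a7, Snap25, Syt1 and Syt2. A probe belonged to one of them when it was not a control probe and the array design gave it that gene name, which held for 23 of 56605 probes and 10 of 37318 genes. The tissue was the cochlea of female C57BL/6 mice aged 6 weeks, and RNA of each of 6 groups of 6 mice was hybridised to 1 one-colour array. The groups were a baseline with neither noise nor injection, a group exposed to intense noise for 2 h without an injection (noise only), and 4 noise-exposed groups that received an intraperitoneal injection right after the noise. Of these 4, a saline and a dexamethasone group were sampled 12 h later, and a saline and a dexamethasone group 24 h later. The dexamethasone dose was 10 mg/kg. The sources used here give no time of sampling for the noise only group and do not say whether the RNA of the 6 mice was pooled. Because each group had a single array, the differences below could not be set against a spread between replicates, and they describe these arrays.

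At an active zone, scaffold proteins hold synaptic vesicles beside calcium channels, so that calcium entry triggers fusion of the vesicle with the membrane. Inner hair cells release glutamate at ribbon synapses, where a ribbon built mainly from the Ribeye product of Ctbp2 and anchored by bassoon (Bsn) tethers vesicles near Cav1.3 channels (Cacna1d). Hair cells load glutamate through the transporter encoded by Slc17a8 and use otoferlin (Otof), while conventional neuronal terminals load it through the products of Slc17a7 and Slc17a6 and use Snap25 with Syt1 or Syt2 for fast release. A whole cochlea holds hair cells and neurons together, so a lower value in such RNA can mean fewer cells of a type or less RNA per cell, and these cannot be told apart.

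Several of the genes were covered by probes at distant places of the locus, and the results below turn on which probe was read. The last 30 bases of the probes at issue are shown, as the deposited files list them, 5′ to 3′, with a poly(A) signal hexamer (AATAAA or ATTAAA, searched on the probe strand) in capitals. Positions are on mm9. Whether a probe lies in an exon or an untranslated part was not looked up, since no mm9 annotation was used here.
Slc17a6, NM_080853, chr7:58926067-58926126: aaattatccccatgttgcttgtggtagcag
Slc17a7, NM_182993, chr7:52430841-52430900: ttccaagctggtttaacctaaccaccaatg
Snap25, NM_001291056, chr2:136607709-136607768: aacacaccattaatcatttctagcaaaata
Snap25, ENSMUST00000125486, chr2:136588586-136588645: gagatgaggagtgtttctaaagattgatgc
Syt1, NM_001252341, chr10:107935310-107935369: taccaaagagaaggagttgactttaaaaaa
Syt1, ENSMUST00000126278, chr10:108336500-108336559: aattcttgcttcctgcatggtgcacccact
Syt2, NM_009307, chr1:136645935-136645994: cagtggcttcattttaattttagtgaaaat
Syt2, ENSMUST00000187702, chr1:136659097-136659156: cttgcctgggtgggacttcttATTAAAaaa
Rims2, NM_001256382, chr15:39515546-39515605: actttctgcatattcctgtacacattattc
Rims2, NM_053271, chr15:39269263-39269322: gagttcagaccagtccgagtcagtgaggcc
Cacna1d, NM_001302637, chr14:30853773-30853832: tagaactgtcaagatttcctgtcagcatca
Cacna1d, AK162450, chr14:31163417-31163476: ggcagttatatgcattttaatttgttgaaa
The transcript is the one the array design lists for the probe. The Snap25, Syt1 and Rims2 probes of the second line lie 19.1, 401 and 246 kb upstream of the first in the direction of transcription, the Cacna1d clone probe lies 309.6 kb upstream, and the Syt2 Ensembl probe lies 13.2 kb downstream. A hexamer was present in 3 of the 23 probes of these genes (2 of Pclo and 1 of Syt2) and in 13.4% of 56589 probes.

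Between 63.0% and 70.3% of probes were well above background per array, and no spot was saturated. Values are signals divided by the 75th percentile of the array, and differences are on the log2 scale of that ratio. Intervals in brackets are 95% intervals from the error the scanner software gives for each spot, which cover the measurement of a spot and not the spread between mice. The cochlear marker Coch lay between 5.44 and 6.03 and the hair cell marker Otof between 1.92 and 2.44 on the log2 scale, both well above background on all 6 arrays. Markers of other tissues were also measured: the cerebellar marker Pcp2 and the pituitary hormone Prl were well above background on 6 of 6 arrays. The summed scaled signal of 18 cerebellar markers was 56.3 at baseline, 222 after noise only, 159 and 169 in saline and dexamethasone at 12 h, and 70.4 and 47.3 at 24 h. The 12 h arrays were on 1 slide and the other 4 on another, so for a 12 h array against baseline the slide and the time cannot be told apart.

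**Figure D1:**
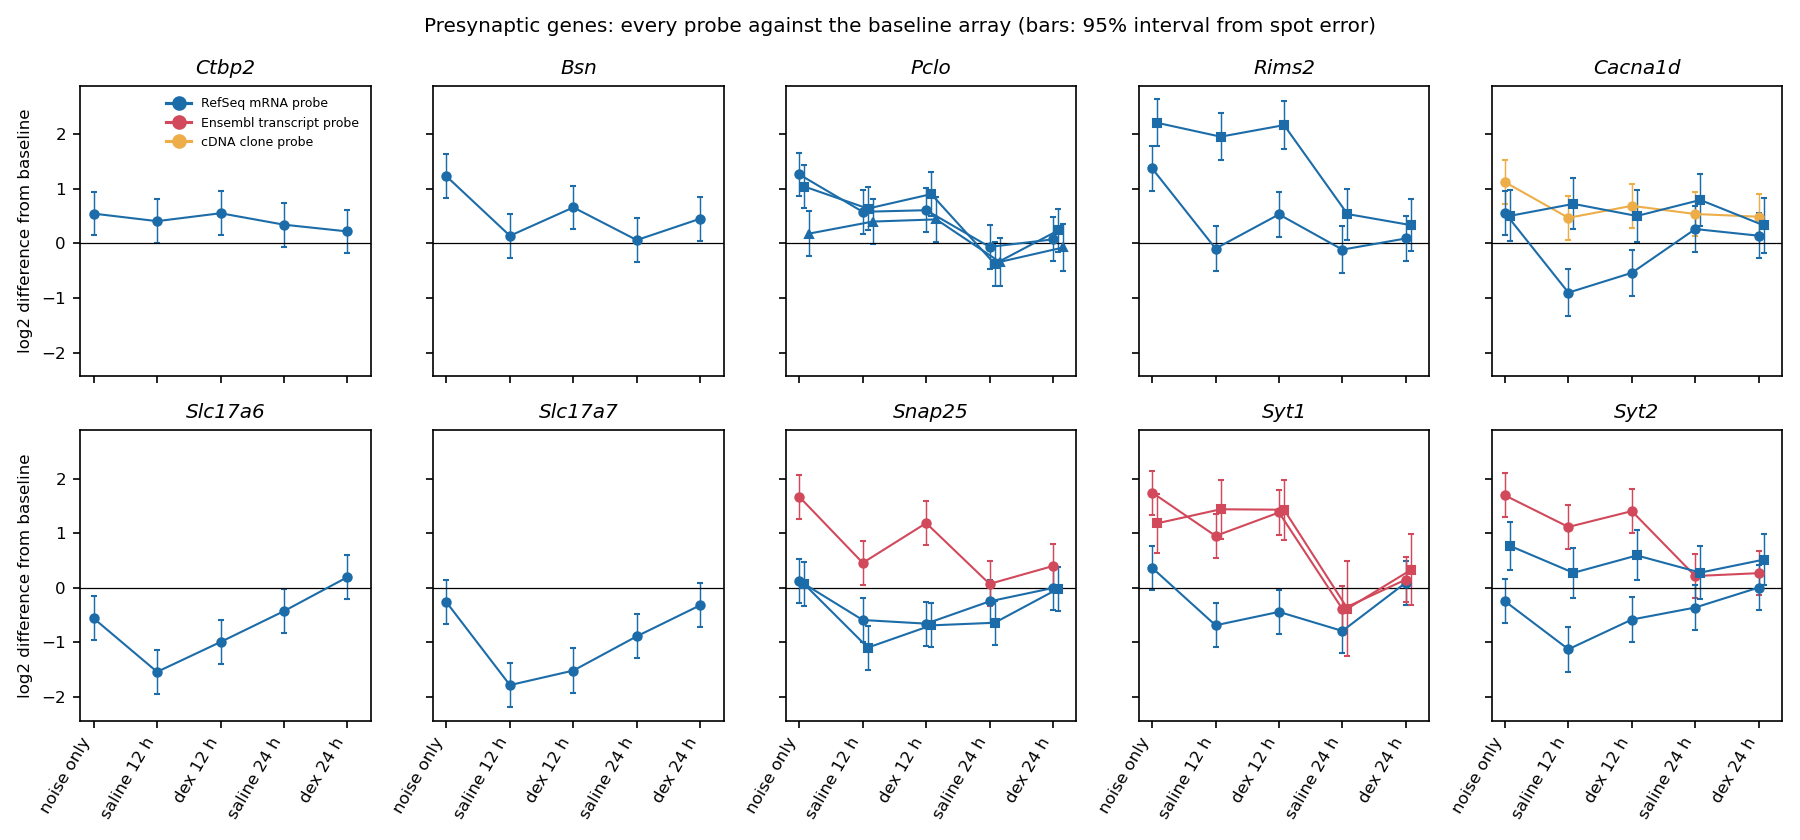
Log2 difference of each probe from the baseline array (y axis) on the other 5 arrays (x axis), 1 panel per gene, with probes well above background on at least 5 arrays. Points are single arrays, bars are 95% intervals from the spot error, lines join the values of 1 probe, and colour gives the kind of transcript the probe was designed on. RefSeq probes of Slc17a6 and Slc17a7 lie lowest in saline 12 h (-1.54 and -1.78), while Ensembl probes of Snap25, Syt1 and Syt2 lie above 1 after noise only.

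Bsn, Pclo and Rims2, which encode scaffold proteins of the active zone, were highest on the noise only array by their brightest probes. Bsn, Pclo, Rims2, Cacna1d and Syt2 were each at least 2-fold above baseline there, 5 of the 10 genes by the brightest probe of each, against 2.64% of 24161 genes, and none was 2-fold lower, against 3.17%. The median difference of the 10 genes was 0.83, and that of all genes was -0.01. By the probe nearest the 3′ end among RefSeq mRNA probes, 3 of the 10 genes were 2-fold higher, against 2.57% of 24020 genes. Cacna1d and Syt2 were not among these 3, and the median of the 10 genes was 0.46. This choice of probe was added after the data had been seen. All comparisons with baseline in this text share the baseline array.

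Bsn, which encodes bassoon, had a signal of 0.963 at baseline, 2.25 after noise only, 1.06 in saline 12 h, 1.52 in dexamethasone 12 h, 1.00 in saline 24 h and 1.32 in dexamethasone 24 h. The noise only array stood above all others, and its gap of 0.57 to the next array exceeded the spot error. The difference of that array from baseline was 1.23 (0.83 to 1.63), or 2.34-fold. Both dexamethasone arrays were also above baseline, by 0.66 (0.26 to 1.06) at 12 h and 0.45 (0.05 to 0.85) at 24 h. The saline arrays differed from it by 0.14 (-0.26 to 0.54) and 0.06 (-0.34 to 0.46). A second Bsn probe, 6.99 kb upstream, was well above background on 3 arrays and another, 94.4 kb upstream, on 0, so for Bsn the result rests on 1 probe.

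Pclo encodes piccolo, a large scaffold related to bassoon. Its signal was 0.920 at baseline, 2.20 after noise only, 1.37 and 1.40 in saline and dexamethasone at 12 h, and 0.880 and 0.968 at 24 h. The noise only array was again the highest, both 12 h arrays were above the 24 h arrays, and saline 24 h was lowest. The differences were 1.26 (0.86 to 1.66) after noise only, 0.58 in saline 12 h and 0.61 in dexamethasone 12 h. The probe nearest the 3′ end of the gene differed likewise, with 1.04 after noise only and 0.64 and 0.90 at 12 h, but a probe 181 kb upstream of it read 0.18 (-0.23 to 0.60) after noise only. For Bsn and Pclo, the difference between their changes had an interval that included 0 in 7 of 7 comparisons and was -0.03 (-0.60 to 0.53) after noise only.

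Rims2 encodes RIM2, which links vesicles to calcium channels. Its brightest probe read 0.243 at baseline, 0.630 after noise only, 0.228 and 0.352 in saline and dexamethasone at 12 h, and 0.225 and 0.259 at 24 h. The noise only array was the highest by this probe, 1.37 (0.97 to 1.78) above baseline, and dexamethasone 12 h came next at 0.53 (0.12 to 0.94). The probe 246 kb upstream read 0.0873 at baseline, 0.403 after noise only, 0.338 and 0.391 at 12 h, and 0.127 and 0.110 at 24 h. By that probe noise only and both 12 h arrays were 3.87 to 4.62-fold above baseline, and saline 12 h differed from baseline by 1.95 against -0.09 by the other probe.

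Ctbp2 varied least of the 10 genes over the arrays by these probes, with a range of 0.55. Its signal was 2.77 at baseline, 4.05 after noise only, 3.68 and 4.07 in saline and dexamethasone at 12 h, and 3.52 and 3.23 at 24 h. Baseline was the lowest array, and no neighbours in the order of the 6 arrays were further apart than the spot error. The difference after noise only was 0.55 (0.15 to 0.95). The single Ctbp2 probe does not separate the ribbon protein Ribeye from the transcriptional corepressor made from the same gene.

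Cacna1d encodes the pore of Cav1.3, the main calcium channel of inner hair cells. Its brightest probe, designed on a cDNA clone, read 0.280 at baseline, 0.609 after noise only, 0.387 and 0.450 at 12 h in saline and dexamethasone, and 0.406 and 0.392 at 24 h. It was 1.12 (0.72 to 1.53) above baseline after noise only. The RefSeq probe nearest the 3′ end read 0.231 at baseline, 0.340 after noise only, 0.124 and 0.159 at 12 h, and 0.277 and 0.254 at 24 h. After noise only both were above baseline, by 1.12 and 0.56, whereas in saline 12 h the first was 0.47 above and the second 0.90 below, as a difference of -0.90 (-1.32 to -0.48). Another RefSeq probe, 1.49 kb upstream of the second, read 0.72 in saline 12 h, so the low 12 h values rest on 1 of 3 probes.

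The cerebellar markers were higher on the same arrays. After noise only, 17 of 18 were at least 2-fold above baseline with a median of 2.51. In the same comparison the hair cell list had a median of 0.59 with 0 of 15 measured genes 2-fold apart, and the spiral ganglion neuron list one of -0.22. The part of RNA from other tissue in the differences of Bsn, Pclo, Rims2 and Cacna1d was not tested.

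The vesicular glutamate transporter genes Slc17a6 and Slc17a7 were lowest in saline 12 h, and Snap25 and Syt1 were below baseline on both 12 h arrays by their RefSeq probes. By the probe nearest the 3′ end among RefSeq mRNA probes, 7 of the 10 genes were below baseline in saline 12 h with a median of -0.64, against 0.05 over all genes. Of them 3, Slc17a6, Slc17a7 and Syt2, were at least 2-fold lower, against 3.6% of 24126 genes, and 0 were 2-fold higher, against 4.38%. By the brightest probe of any kind the counts were 2 lower and 1 higher, against 3.43% and 4.41% of 24285 genes, with a median of 0.02. This way of choosing the probe was added after the data had been seen.

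**Figure D2:**
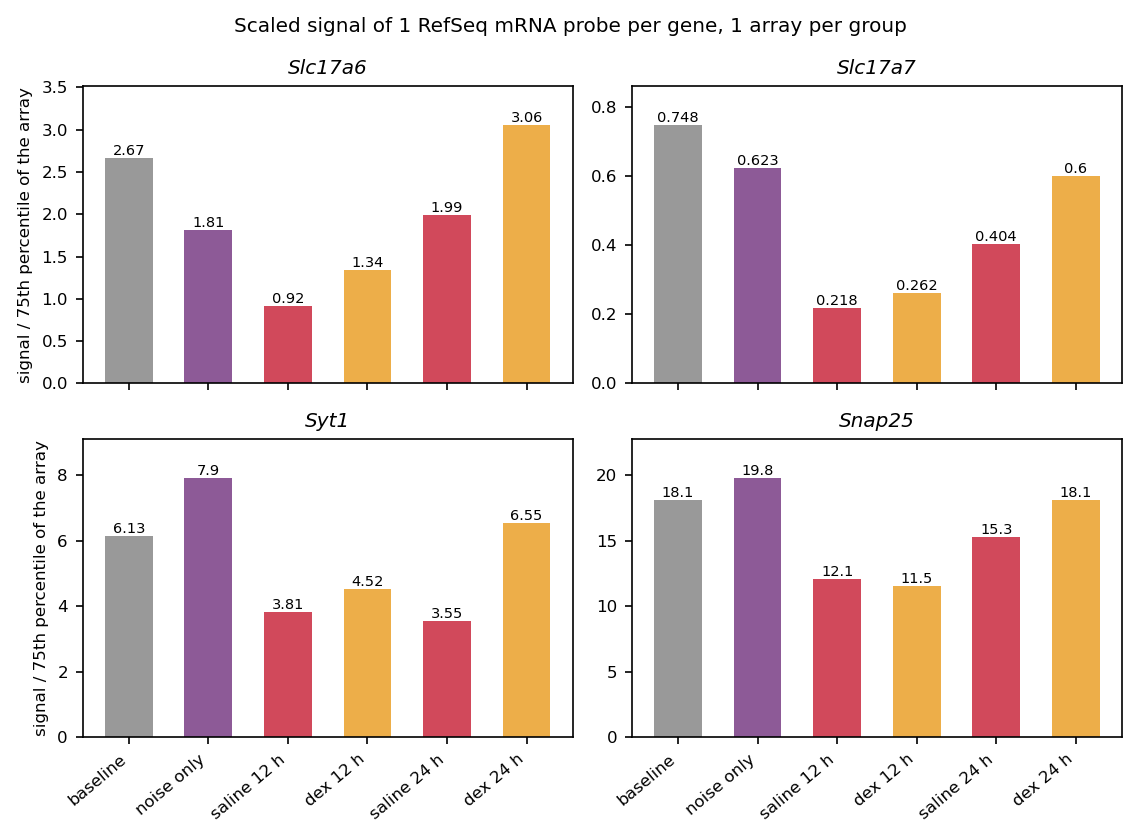
Signal divided by the array's 75th percentile (y axis, from 0) for 1 RefSeq probe of each of 4 genes, with 1 bar per array (x axis) and no error bars. Each panel has its own scale. Slc17a7 goes from 0.748 at baseline to 0.218 in saline 12 h, and the dexamethasone bar stands above the saline bar at both times for Slc17a6, Slc17a7 and Syt1.

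Slc17a6 encodes VGLUT2. Its signal was 2.67 at baseline, 1.81 after noise only, 0.920 in saline 12 h, 1.34 in dexamethasone 12 h, 1.99 in saline 24 h and 3.06 in dexamethasone 24 h. Saline 12 h was the lowest array and dexamethasone 24 h the highest, and the latter did not differ from baseline beyond the spot error. Relative to baseline the differences were -0.56 (-0.96 to -0.16) after noise only, -1.54 (-1.94 to -1.14) in saline 12 h and -0.99 (-1.39 to -0.59) in dexamethasone 12 h. At 24 h they were -0.43 (-0.83 to -0.03) in saline and 0.20 (-0.20 to 0.60) in dexamethasone. Slc17a6 was the only one of the 10 genes, by the brightest probe, whose noise only interval lay below 0.

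Slc17a7 encodes VGLUT1. Its signal was 0.748 at baseline, 0.623 after noise only, 0.218 in saline 12 h, 0.262 in dexamethasone 12 h, 0.404 in saline 24 h and 0.600 in dexamethasone 24 h. Both 12 h arrays were the lowest and were 3.43-fold (saline) and 2.85-fold (dexamethasone) below baseline. The differences were -1.78 (-2.19 to -1.37) and -1.51 (-1.92 to -1.11), and at 24 h they were -0.89 (-1.29 to -0.48) in saline and -0.32 (-0.72 to 0.08) in dexamethasone. Each transporter was measured by 1 probe. The change of Slc17a7 minus that of Slc17a6 had an interval that included 0 in 7 of 7 comparisons, with -0.24 (-0.81 to 0.33) in saline 12 h. Slc17a8, the transporter of inner hair cells, was -1.14 in saline 12 h and -0.56 in dexamethasone 12 h, and Otof was 0.01 and -0.13. The hair cell list, which holds both, had 8 of 15 measured genes above baseline on each of these arrays, with medians of 0.01 and 0.03. In saline 12 h 1 of the 15 was 2-fold higher and 2 were lower, Slc17a8 among them, against 4.41% and 3.43% of all genes.

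Snap25, a SNARE protein of the plasma membrane, had the signal 18.1 at baseline, 19.8 after noise only, 12.1 and 11.5 in saline and dexamethasone at 12 h, and 15.3 and 18.1 at 24 h. The 12 h arrays were low and the others within the spot error of baseline. The differences were -0.59 (-0.99 to -0.19) in saline 12 h and -0.66 (-1.06 to -0.26) in dexamethasone 12 h. A RefSeq probe that spans a junction, 8.09 kb upstream, read -1.09 (-1.49 to -0.69) and -0.69 (-1.09 to -0.29). The Ensembl probe 19.1 kb upstream instead read 0.46 (0.05 to 0.86) in saline 12 h and 1.18 (0.78 to 1.59) in dexamethasone 12 h, and 1.66 (1.26 to 2.07) after noise only, where the RefSeq probes read 0.13 and 0.06.

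Syt1, a fast calcium sensor of release, had the signal 6.13 at baseline, 7.90 after noise only, 3.81 and 4.52 in saline and dexamethasone at 12 h, and 3.55 and 6.55 at 24 h by its RefSeq probe. Both saline arrays were low, and dexamethasone 24 h was within the spot error of baseline. The differences were -0.69 (-1.09 to -0.29) in saline 12 h, -0.44 (-0.84 to -0.04) in dexamethasone 12 h and -0.79 (-1.19 to -0.39) in saline 24 h. The Ensembl probe 401 kb upstream was above baseline on those 12 h arrays, at 0.95 in saline and 1.38 in dexamethasone, and read 1.74 after noise only, where the RefSeq probe read 0.37. In saline 24 h it was -0.39.

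Syt2, the fast calcium sensor of many brainstem and peripheral terminals, was read differently by its probes. Its Ensembl probe read 0.342 at baseline, 1.103 after noise only, 0.740 and 0.904 in saline and dexamethasone at 12 h, and 0.397 and 0.412 at 24 h. Its 3′ RefSeq probe read 0.328 at baseline, 0.277 after noise only, 0.151 and 0.219 at 12 h, and 0.256 and 0.329 at 24 h. By the first the noise only and 12 h arrays were 2.16 to 3.23-fold above baseline, and by the second saline 12 h was 2.18-fold below it. A second RefSeq probe, 1.18 kb upstream, read 0.77 after noise only and 0.28 in saline 12 h.

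Markers of spiral ganglion, sensory ganglion and sympathetic neurons and of central glia were lower on the same 12 h arrays, and those of cerebellum were higher. The spiral ganglion neuron list summed to 445 at baseline, 394 after noise only, 240 and 308 in saline and dexamethasone at 12 h, and 359 and 540 at 24 h. Its median was -0.70 in saline 12 h, with 5 of 18 genes 2-fold lower, among them Prph at -2.01. Cerebellar markers had a median of 1.73 in saline 12 h, with 12 of 18 genes 2-fold higher, and 1.94 in dexamethasone 12 h, with 15 of 18. Sensory ganglion markers summed to 16.6 at baseline, 3.7 and 13.0 in saline and dexamethasone at 12 h, and 5.6 and 23.4 at 24 h, and sympathetic markers to 32.9, 2.2 and 3.9, and 2.2 and 37.6. Skeletal muscle markers had a median of 1.99 in saline 12 h, with 7 of 8 genes 2-fold higher. Central glia markers had medians of -1.13 and -1.18 in saline and dexamethasone at 12 h, with 7 of 7 genes below baseline on each array. The medians were -0.31 and -0.55 for Schwann cell markers and -0.20 and -0.35 for markers of cochlear structure. The part of cell or tissue makeup in the member values was not tested.

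The E1A spike-in probes, which read control transcripts added to the RNA, scaled the arrays differently. Relative to the percentile scaling, differences from baseline dropped by 0.80 in saline 12 h, 0.51 in dexamethasone 12 h, 0.31 in saline 24 h, 0.39 in dexamethasone 24 h and 0.12 after noise only. With spike-in scaling 1 of 10 genes was above baseline in saline 12 h, in place of 5, and 7.54% of all genes were above. Then 4 were 2-fold lower, against 29.6% of all genes. After noise only 5 were 2-fold higher on that scaling, against 2.16% of all genes. Spike-in scaling lowers all differences of an array from baseline by the same amount. The low 12 h values of Slc17a6 and Slc17a7 therefore could not change sign by it. In saline 12 h the values of Bsn (-0.66 with spike-in scaling), Ctbp2, Pclo and Cacna1d turned from above to below baseline.

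None of the 10 genes was 2-fold above or below baseline at 24 h. The shares of all genes were 1.72% of 22966 in each direction in saline, and 1.31% higher and 2.02% lower of 23418 in dexamethasone. At such shares 0 of 10 does not set these genes apart. Over all genes 3.44% were 2-fold apart in saline 24 h and 7.83% in saline 12 h. The 24 h arrays were on the slide of the baseline array and the 12 h arrays were not. The medians were -0.09 in saline and 0.14 in dexamethasone, and with spike-in scaling -0.40 and -0.25. On that scaling 2 of the 10 genes in place of 8 were above baseline in dexamethasone 24 h, against 9.66% of all genes in place of 52.5%. In saline 24 h the intervals of Slc17a6, Slc17a7 and Syt1 lay below 0 and that of Cacna1d above 0. In dexamethasone 24 h 2 genes, Bsn among them, had an interval above 0 and 0 had one below. At least 1.5-fold apart from baseline were 10.2% of all genes in saline 24 h and 10.6% in dexamethasone 24 h. In dexamethasone 12 h 1 gene was 2-fold higher (Syt2, by the Ensembl probe) and 1 lower (Slc17a7), against 4.55% and 2.64% of 23822 genes, with a median of 0.54 by the brightest probe and -0.49 by the 3′ RefSeq probe.

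By the brightest probe, dexamethasone was above saline at both times for Slc17a6, Slc17a7, Syt1, Syt2, Bsn, Pclo and Rims2. These were 7 of the 10 genes, each above by less than 2-fold. The share of all genes above saline at both times was not taken. The Rims2 probe 246 kb upstream was below saline at 24 h (-0.20). At 12 h 9 of the 10 genes were above saline with a median of 0.26, and at 24 h 8 of 10 with a median of 0.22. Over all genes 47.1% and 49.2% were above saline, with medians of -0.02 and -0.005. None of the 10 was 2-fold apart at 12 h, against 1.67% of 24179 genes higher and 1.87% lower, or at 24 h, against 1.63% and 1.53% of 22710. With spike-in scaling 10 of 10 were above saline at 12 h and 7 of 10 at 24 h, against 77.9% and 37.1% of all genes. The pair of arrays at each time shares a slide.

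**Figure D3:**
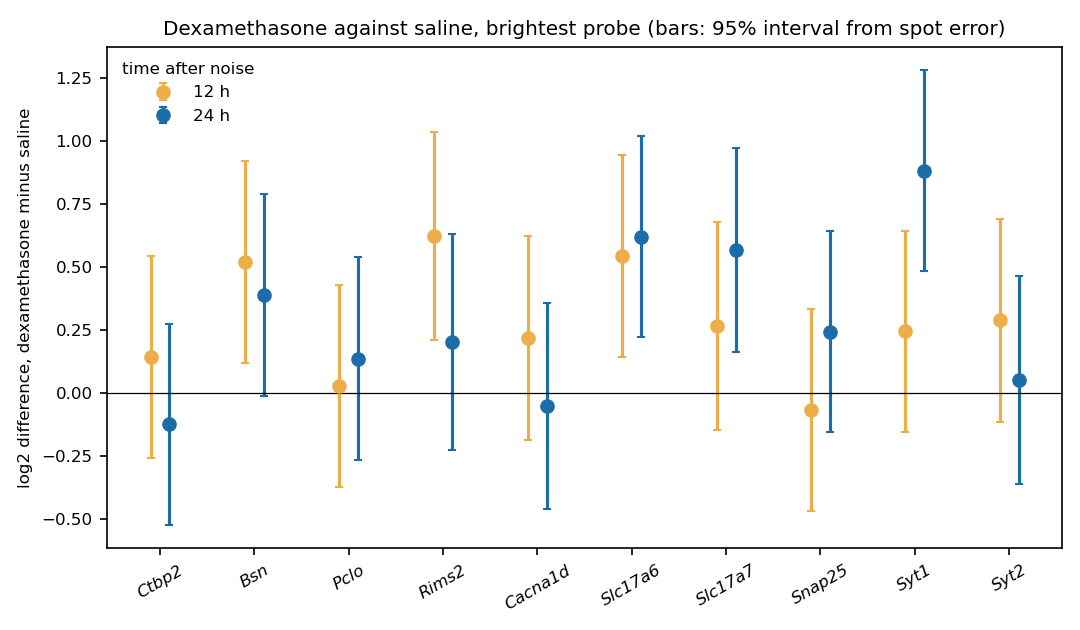
Log2 difference of dexamethasone minus saline (y axis) for the brightest probe of each gene (x axis) at 12 h and 24 h after noise. Points are differences between 2 arrays and bars are 95% intervals from the spot error. Slc17a6 lies above 0 with its interval at both times (0.55 and 0.62), and Syt1 has the highest value of the 10 genes at 24 h (0.88).

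Slc17a6 differed by 0.55 (0.15 to 0.95) at 12 h and 0.62 (0.22 to 1.02) at 24 h. Slc17a7 differed by 0.27 (-0.15 to 0.68) and 0.57 (0.16 to 0.97). Syt1 differed by 0.25 (-0.15 to 0.65) and 0.88 (0.48 to 1.28), and its Ensembl probe 401 kb upstream by 0.43 and 0.54. These 3 genes thus had intervals above 0 at 24 h, and at 12 h the genes with such an interval were Bsn at 0.52 (0.12 to 0.92), Rims2 at 0.63 (0.21 to 1.04) and Slc17a6. The share of all genes with such an interval was not taken. At least 1.5-fold apart in either direction were 12.8% of all genes at 12 h and 11.1% at 24 h. The Snap25 probes differed by -0.07, 0.41 and 0.73 at 12 h and by 0.24, 0.62 and 0.33 at 24 h. Syt1 differed from Snap25 at 24 h by 0.64 (0.07 to 1.20) in its change, the 1 interval of the 7 for that pair that excluded 0. Of the 20 probes well above background on all arrays, 14 were above saline at both times and 1 was below at both. The same share over all probes of the array was not taken.

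Over both times, with a term for time, limma called 0 of 24767 genes at an adjusted p under 0.05 (0.0%), while 3634 had an unadjusted p below 0.05. Among the 10 genes, limma gave Slc17a6 a difference of 0.58 with an SE of 0.12 and an adjusted p of 0.19, Syt1 0.56 with an SE of 0.19 and 0.29, and Bsn 0.46 with an SE of 0.13 and 0.25. Slc17a7 was at 0.42 with an adjusted p of 0.35 and Rims2 at 0.41 with 0.40 by limma, and the other 5 were between 0.01 and 0.17. With another probe choice limma put 3 of those higher, Pclo at 0.44 and Syt2 at 0.45 by the 3′ RefSeq probe and Snap25 at 0.38 by the mean over probes, each short of the threshold (adjusted p 0.29, 0.32 and 0.33). The fit used 4 arrays, took the difference at each time as a repeat of the other, and had 1 residual degree of freedom. Without the filter on dim probes, limma gave Slc17a6 an adjusted p of 0.042, and 951 of all 37318 genes were called in that setting. Over the limma settings with all 4 arrays the call for the other 9 genes was the same.

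Markers of other tissues also differed between these arrays. Sensory ganglion markers had a median of 1.87 at 12 h and 2.37 at 24 h in dexamethasone against saline, sympathetic markers 0.60 over 7 measured genes and 3.17 over 3, and spiral ganglion neuron markers 0.28 and 0.39. Cerebellar markers had medians of 0.18 at 12 h and -1.19 at 24 h. Pituitary markers had -0.76 over 5 measured genes at 12 h and 6.21 over 4 at 24 h, where they summed to 105.5 in dexamethasone and 1.6 in saline. At 24 h central glia markers had a median of 0.73 and markers of cochlear structure -0.63. Their part in the values of Slc17a6, Slc17a7 and Syt1 was not tested.

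Probes at different places of a gene did not always give the same sign. In saline 12 h the measured probes of Rims2, Cacna1d, Snap25, Syt1 and Syt2 differed in sign and those of Pclo did not. After noise only this held for Syt2 alone. For each gene with probes at several places, the change of the most upstream probe minus that of the most downstream probe was taken. Over 480 genes with probes 100 kb or more apart the median was 0.67 in saline 12 h and 0.50 in dexamethasone 12 h, but 0.11 after noise only, 0.18 in saline 24 h and 0.15 in dexamethasone 24 h. Over 1478 genes with probes under 1 kb apart it was -0.03 in saline 12 h. Dexamethasone against saline showed little of it, with -0.13 at 12 h and -0.02 at 24 h over the 480 genes.

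**Figure D4:**
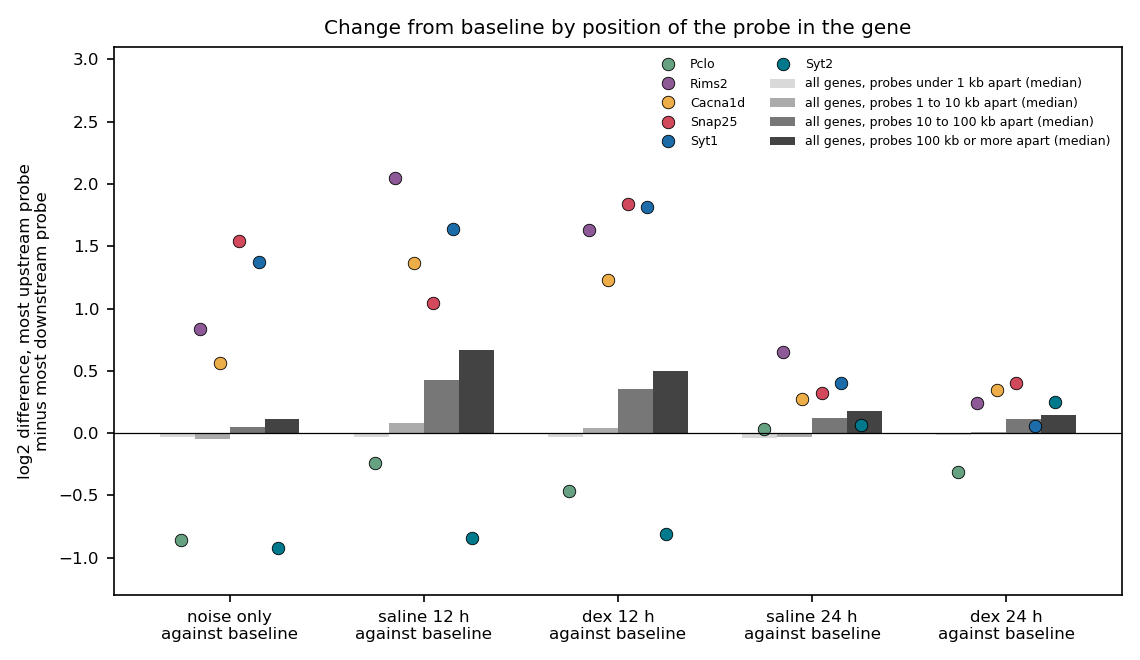
Log2 difference from baseline of the most upstream probe minus that of the most downstream probe (y axis) on 5 arrays (x axis). Grey bars are medians over all genes by the distance between their probes, and coloured points are 6 of the presynaptic genes. Bars rise with distance at 12 h, to 0.67 in saline 12 h, and Rims2 (2.05) and Syt1 (1.64) lie above them.

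Rims2 had a value of 2.05 in saline 12 h, Syt1 1.64, Cacna1d 1.37 and Snap25 1.04, and 32.3% of the 480 genes had 1 or more. The Snap25 probes are less than 100 kb apart, and of 2746 genes with probes 10 to 100 kb apart 16.6% had 1 or more, with a median of 0.42. After noise only Snap25 had 1.54, Syt1 1.38, Rims2 0.83 and Cacna1d 0.56, and 4.58% of the 480 genes and 1.93% of the 2746 had 1 or more. Pclo went the other way with -0.24 in saline 12 h and -0.86 after noise only, and so did Syt2, whose Ensembl probe lies downstream, with -0.84 and -0.92. At 12 h the change of the upstream probe was thus above that of the downstream probe at the median of genes with probes 10 kb or more apart, though not in Pclo or Syt2. After noise only the gap was wide in Snap25 and Syt1, and the median over genes with such probes was 0.05 at 10 to 100 kb and 0.11 beyond.

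Probes were also compared by the kind of transcript. In Snap25 and Syt1 the Ensembl probe is also the most upstream probe, and in Syt2 the most downstream. For these genes the comparison reads the same Ensembl probes again, and kind and position cannot be told apart. In 1998 genes with both kinds of probe, the Ensembl probe minus the RefSeq mRNA probe had a median of 0.07 after noise only, 0.16 in saline 12 h and 0.21 in dexamethasone 12 h. For Snap25, Syt1 and Syt2 it was 1.57, 1.38 and 1.43 after noise only, and 1.90% of the 1998 genes had 1 or more. In saline 12 h it was 1.30, 1.64 and 1.54, where 8.56% had 1 or more. At 24 h the 3 genes had at most 0.51 in saline and 0.41 in dexamethasone. The cerebellar markers were high on the same arrays as these Ensembl probes, and whether the transcripts differ between tissues was not tested.

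**Figure D5:**
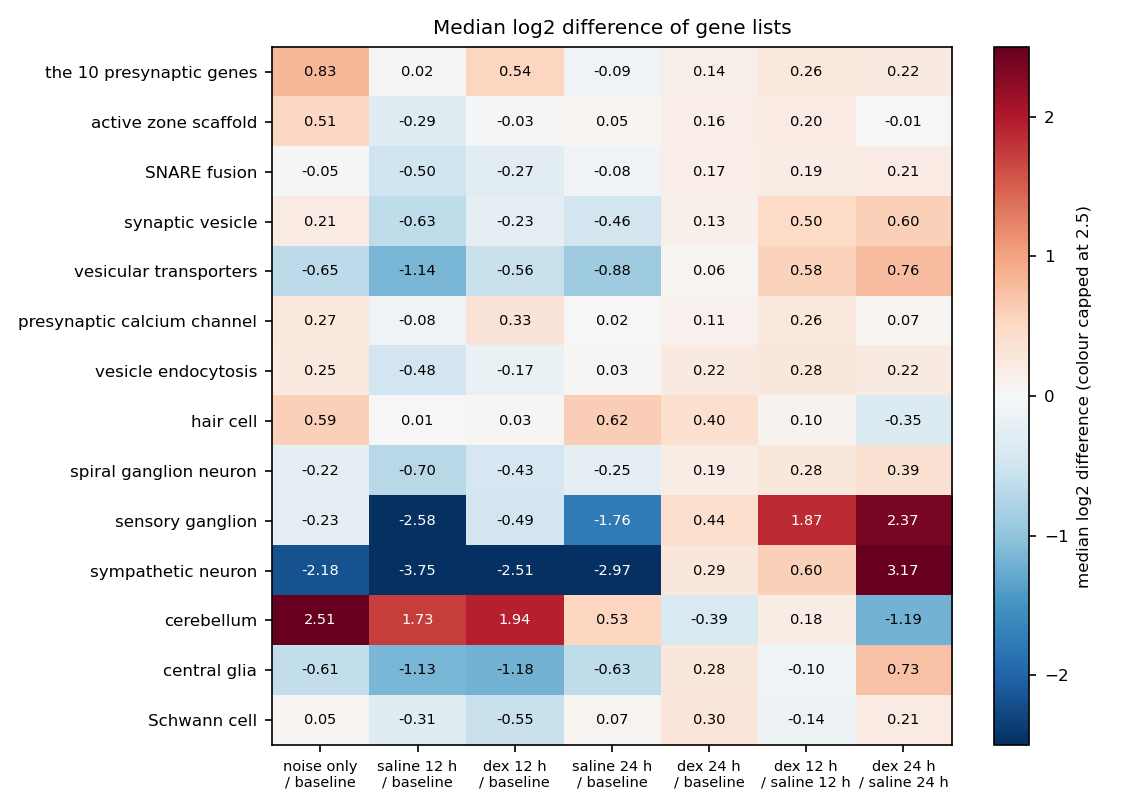
Median log2 difference (number in each cell, colour capped at 2.5) of the 10 presynaptic genes, 6 pathway lists and 7 marker lists (rows) in 7 comparisons (columns), by the brightest probe of each gene. The cerebellum row reads 2.51 after noise only, and the sympathetic neuron row -3.75 in saline 12 h, beside medians of 0.83 and 0.02 for the 10 genes.

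The other genes of the release machinery showed both patterns. After noise only, 2.64% of all genes were 2-fold higher and 3.17% lower. Of 13 further active zone scaffold genes, 4 were 2-fold higher and 0 lower. Among them were Unc13c (1.95) and Unc13a (1.42), which encode Munc13 priming factors, and Rims1 (1.49). The SNARE list had 1 of 16 higher, Doc2b (2.04), and the calcium channel list 3 of 13, Cacna1e (1.71), Cacna1a (1.45) and Cacnb4 (1.06). Synaptic vesicle genes had 0 of 23 higher and 1 lower, Rab3b (-1.21). Of the 5 other vesicular transporters 2 were lower, those for monoamines, Slc18a2 (-1.54), and for acetylcholine, Slc18a3 (-1.01).

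In saline 12 h, 3.43% of all genes were 2-fold lower and 4.41% higher. Of 23 synaptic vesicle genes, 5 were 2-fold lower and 0 higher, with a median of -0.63. Rab3b was at -2.24, Sv2c at -1.79 and Syt5 at -1.43. The SNARE list had 3 of 16 lower, the syntaxin gene Stx1a (-1.58), Vamp1 (-1.39) and Napb (-1.04), with a median of -0.50. Scaffold genes were split, with 4 of 13 higher, such as Unc13a (2.83-fold) and Unc13c (2.60-fold), and 2 lower, such as Rimbp2 (-1.60). The 77 measured genes of the 6 lists together had 13 lower and 5 higher, with 20 of 77 above baseline, while 55.1% of all genes were above.

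In dexamethasone 12 h against baseline these 77 genes had 4 lower and 6 higher, against 2.64% and 4.55% of all genes. At 24 h, of the measured genes of the 6 lists 5 of 76 were lower and 2 higher in saline, against 1.72% of all genes each way. In dexamethasone 24 h 1 of 77 was lower and 0 higher, against 2.02% and 1.31% of all genes. Endocytosis genes, which recover vesicle membrane after release, had 0 of 7 2-fold apart in every comparison. Over all genes 3.16% to 7.83% were, so that 0 of 7 does not set this list apart. The median of the endocytosis genes was 0.25 after noise only and -0.48 in saline 12 h.

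For dexamethasone against saline at 24 h, 7 of 76 measured list genes were 2-fold higher and 0 lower, against 1.63% and 1.53% of all genes. The 7 were Syt5 (2.17), Slc18a2 (2.00), Rab3b (1.98), Stx1a (1.60), Syngr3 (1.44), Doc2b (1.08) and Cacna1b (1.04). At 12 h 0 of 77 were higher and 1 was lower, Cplx3 (-1.04), and 64 of 77 were above saline. Over all genes 1.67% were higher and 1.87% lower at 12 h, and 47.1% were above saline. Slc18a2 loads monoamines. On the same arrays 3 of 8 sympathetic markers were measured, among them Th, at 3.17, and Ddc, at 3.31. The part of sympathetic tissue in the difference of Slc18a2 was not tested.

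For the 3 genes of widest range, the genes of most similar pattern were taken as those with the smallest root mean square difference of centred log2 values over the 6 arrays. For Slc17a6 they were Scrt2 (0.05), Fam196a (0.06), Cadps (0.08) and Plekhh1 (0.09). Cadps encodes a priming factor of dense-core vesicles. For Slc17a7 they were Atp6v1g2 (0.06), a subunit of the proton pump of vesicles, Cdh10 (0.12), Edil3 (0.15) and Snrpn (0.15). For Syt2 by its Ensembl probe they were Gldc (0.10), Lrrtm3 (0.11), Ipw (0.11) and Rtn4r (0.11). These are descriptions over 6 arrays, and the arrays share the differences in tissue markers given above.

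For the 2 glutamate transporter genes, the 250 bases upstream of their starts are shown from the RefSeq table of GRCm38.p6, on the plus strand, with a GC box (GGGGCGGGG, either strand) in capitals.
Slc17a7, chr7:45163671-45163920: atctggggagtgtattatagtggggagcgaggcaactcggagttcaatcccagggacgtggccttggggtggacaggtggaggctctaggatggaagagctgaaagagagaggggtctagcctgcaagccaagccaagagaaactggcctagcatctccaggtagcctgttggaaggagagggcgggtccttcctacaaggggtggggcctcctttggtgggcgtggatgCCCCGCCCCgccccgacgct
Slc17a6, chr7:51621580-51621829: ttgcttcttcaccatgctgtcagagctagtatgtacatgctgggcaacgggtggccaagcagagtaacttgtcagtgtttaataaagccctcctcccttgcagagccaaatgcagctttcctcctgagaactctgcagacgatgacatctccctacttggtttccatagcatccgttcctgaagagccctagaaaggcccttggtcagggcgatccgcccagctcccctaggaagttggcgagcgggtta
The GC box was found in 10.4% of 32851 promoters and, of 13 promoters of 8 of the 10 genes, in that of Slc17a7. The consensus palindrome of the glucocorticoid response element was in 0.00913% of the promoters, the cAMP response element TGACGTCA in 1.55% and the E-box CACGTG in 6.02%, on both strands, and in 0 of the 13. No match says only that these letters are not in this window.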

How the data were processed

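Cochlear RNA was labelled with Cy3 and hybridised to 6 arrays, per the labels' protocols. Intensity values of the spots, not yet on a log scale, were extracted by the authors with Agilent Feature Extraction 10.10.1.1, per the file headers and the submitters' processing notes. The software subtracted background and gave each spot an error. The authors' deposited value table is in log2 units. Each of its columns equalled log2 of the processed intensity minus a constant within 0.001 for 100% of 56589 probes, with column medians from -2.99 to -2.82.

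Outlier spots were left out, spots of a probe were averaged, and log2 of the processed signal minus the array's 75th percentile was taken. Genes were named by the array design, updated through RefSeq accessions (GRCm38.p6) for 32994 probes, of which 1535 changed name; of the 23 member probes 18 matched and 5 did not, and kept their name. A gene was represented by its brightest probe, and it counted as measured when well above background on both arrays. Counts use a 2-fold threshold. In R 4.3.3, limma 3.58.1 (trended eBayes on a linear fit with a time term, p adjusted by Benjamini-Hochberg) tested dexamethasone against saline on 4 arrays, among genes detected above background on 2 or more of them, after a check on simulated data. Other work was done with numpy 2.4.6, pandas 2.3.3, matplotlib 3.10.9 and scipy 1.17.1 under Python 3.11.15.

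The genes, pathway lists and marker lists were chosen with earlier results of these data known. Named were all 10 genes with every probe, up to 3 genes 2-fold apart per pathway list and comparison, 12 defining markers, and 4 genes of similar pattern for each of the 3 members of widest range. Prph and Ddc, of marker lists, were named by the same limit of 3 per list. The alternatives were quantile normalization, normexp with an offset of 50, other percentile and spike-in scaling, the series matrix values, the mean over probes, no filter on dim probes, 1.5-fold and 3-fold thresholds and other settings of the fit.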

Additional observations from a re-analysis of the deposited data

How the results depend on the processing

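Of 942 values under an alternative, 841 stayed within the spot-error interval, on the same side of the test's threshold or within 1.5 times of the count. The number of genes at least 2-fold apart after noise only was 5, and 2 with the mean over probes, 3 with RefSeq probes only or the 3′ RefSeq probe, and 1 at 3-fold (1.65% of all genes). In saline 12 h it was 3, with 5 at 1.5-fold (25.4% of all genes) and 1 at 3-fold (2.27%), and the median of 0.02 became -0.78 with spike-in scaling and -0.64 with either choice of RefSeq probe. In saline 24 h it was 0, with 2 on spike-in scaling (4.86%) and 2 at 1.5-fold (10.2%). In dexamethasone 12 h it was 2, with 1 by either RefSeq choice, 7 at 1.5-fold (21.1%) and 0 at 3-fold (2.04%), and the median of 0.54 became 0.036 with spike-in scaling and -0.49 by either RefSeq choice. Against saline, 1.5-fold gave 1 gene at 12 h (12.8%) and 2 at 24 h (11.1%). By the 3′ RefSeq probe, 2.57% of all genes were 2-fold higher and 3.28% lower after noise only. The shares by that probe in dexamethasone 12 h were 4.48% and 2.78%. Shares of all genes with the mean over probes or with RefSeq probes only are not given here, so those counts have no background. Both RefSeq choices were added after the data were seen, and the cause of the changes in counts and medians was not tested.

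Single genes that changed sign included Syt2 after noise only (-0.25 by RefSeq), in saline 12 h (-1.12) and in dexamethasone 12 h (-0.58). Cacna1d by RefSeq was another (-0.90 in saline 12 h and -0.54 in dexamethasone 12 h). Syt1 with the mean over probes read 0.57 in saline 12 h and 0.79 in dexamethasone 12 h. With spike-in scaling in saline 12 h, Bsn was -0.66, Ctbp2 -0.39, Pclo -0.22 and Cacna1d -0.33. Changes of sign on that scaling at 24 h included Bsn in saline (-0.25), and Ctbp2 (-0.17) and Pclo (-0.32) in dexamethasone.

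In the limma fit, 0 genes were called, with 590 of 24767 under spike-in scaling (373 higher, 217 lower) and 951 of 37318 without the filter on dim probes (328 higher, 623 lower). The time term sets dexamethasone against saline within a time and slide, and without it 0 genes were called (796 at an unadjusted p below 0.05). Leaving out each array also meant dropping that term, and gave 0 to 17 calls. Cacna1d was -0.046 with the mean over probes. Without the term and dexamethasone 12 h, Cacna1d was -0.015, Ctbp2 -0.16, Pclo -0.18 and Syt2 -0.40. Without it and saline 12 h, Slc17a7 was -0.029 and Snap25 -0.081. Without it and dexamethasone 24 h, Slc17a6 was -0.0093, Slc17a7 -0.18 and Snap25 -0.24. Without it and saline 24 h, Ctbp2 was -0.021, Pclo -0.24 and Syt2 -0.28. Such a fit sets arrays of different times against each other. The number of arrays limits the precision, and signals near background carry wider spot errors.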
